A study of Homo sapiens with 3 samples.

Results

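The genes described here are 42 genes of DNA replication: the subunits and loaders of the replicative helicase, the clamp, polymerases and processing enzymes of the fork, and the chromatin factors that follow it. They were chosen by name as the rows of the deposited matrices that carry these symbols, so 42 of 58735 annotated genes are members. Of the 8143 genes with a mean of at least 10 CPM (the UMIs of a gene as a share of all UMIs, brought to a common library total) over the libraries, 41 are members. The exception, CHAF1B, averaged 9.47 CPM.

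Single cells of FaDu, an established human line from a hypopharyngeal squamous cell carcinoma, and of a stable FaDu subline were sequenced. The subline had been raised with TPF, a chemotherapy of paclitaxel with cisplatin and 5-fluorouracil, and resists it. Cinobufotalin is a bufadienolide, a toad venom steroid that acts like the cardiac glycosides. Each of the 3 groups is 1 library. Resistant cells given TPF with cinobufotalin are called the combination library, resistant cells given TPF the TPF library, and FaDu cells given cinobufotalin the FaDu library. All cells thus come from FaDu, and every library had at least 1 drug. Doses, times and the number of clones behind the subline are not stated in the labels. Untreated cells of either line, and FaDu cells with TPF, were not analysed here. The combination and TPF libraries differ by cinobufotalin, and either of them differs from the FaDu library both by cell line and by drug, which cannot be told apart. A single library per group allowed no test between them, and every interval below is a 95% Clopper-Pearson interval for counting error only.

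Before S phase, the origin recognition complex, CDC6 and CDT1 load rings of MCM2 to MCM7 onto DNA, a step called licensing, and geminin keeps CDT1 from loading them again after S phase has begun. CDC45 and the GINS complex then turn the loaded ring into the active helicase, behind which the clamp PCNA, its loader RFC, the single-strand binding protein RPA and polymerases delta and epsilon copy the DNA. Transcription of many of these genes is driven by E2F factors at the passage from G1 into S phase, and their RNA is widely used as a sign of that passage.

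After cells with fewer than 1000 UMIs, fewer than 500 genes or more than 20% mitochondrial UMIs were left out, 7525 cells remained in the combination library, 4862 in the TPF library and 6123 in the FaDu library. They held 134802289 UMIs in the combination library, 135176387 in the TPF library and 165847771 in the FaDu library, and their median depth was 17867, 27920.5 and 24440 UMIs in that order. The pairs of libraries shared 12 to 19 cell barcodes. All 11 squamous epithelial markers had a mean of at least 10 CPM, with sums of 3796 CPM in the combination library, 4955 CPM in the TPF library and 6743 CPM in the FaDu library. None of the 6 fibroblast, 8 immune and 5 endothelial markers reached that level in any library. COL1A2, LUM and MS4A1 were at 0 in every library, PTPRC was at most at 0.00742 CPM, and CD68 was the highest of the 19, at 3.54 CPM in the combination library, 4.53 CPM in the TPF library and 4.57 CPM in the FaDu library. The median cell gave the nuclear RNA MALAT1 0.731% of its UMIs in the combination library, 0.795% in the TPF library and 0.0892% in the FaDu library. Doublets were not removed.

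Promoter sequence is described first. Whether it bears on how the members' RNA varied among cells was not tested. RefSeq (GRCh38.p14) held a promoter window, 250 bases before to 50 bases after the gene start, for 34 of the 42 members. An E2F word (TTTCCCGC, TTTCGCGC, TTTGCCGC or TTTGGCGC, on either strand) stood in 18 of the 34 windows, 52.9%, against 1164 of 35116 RefSeq windows, 3.31%. CCAAT, the word bound by NF-Y, stood in 22 of the 34, 64.7%, against 34.6% of all windows. TTTGAA, the core of the cell cycle homology region of G2/M promoters, stood in 0 of the 34, against 15.2% of all windows. Each member had 1 window, whereas the 35116 windows were limited neither to 1 per gene nor to genes at 10 CPM. Base composition was not matched between the sets. Of the 25 E2F words in members, 15 began within 50 bases of the gene start. Among the 18 members with an E2F word, the median log2 ratio of the TPF library over the FaDu library was 0.73, and among the 15 without one that had at least 10 CPM it was 0.56. In that comparison 11 of the 18 and 6 of the 15 were at least 1.5-fold higher, beside 35.0% of all genes. The ranges were 0.021 to 1.41 with the word and 0.13 to 1.44 without. In the combination library over FaDu the medians were 0.75 with the word and 0.35 without. There 11 of 18 and 5 of 15 were at least 1.5-fold higher, beside 32.6% of all genes. These differences between the sets were not tested. Windows of 4 members are shown, read on the gene's own strand, with E2F words in capitals. MCM6 holds the most words (4, in overlapping pairs on opposite strands), DTL and PCNA hold 1 each although DTL was among the members furthest apart between the TPF and FaDu libraries and PCNA among the nearest, and MCM10, which had the highest such ratio, holds none.
MCM6, chr2:135876394-135876693, minus strand: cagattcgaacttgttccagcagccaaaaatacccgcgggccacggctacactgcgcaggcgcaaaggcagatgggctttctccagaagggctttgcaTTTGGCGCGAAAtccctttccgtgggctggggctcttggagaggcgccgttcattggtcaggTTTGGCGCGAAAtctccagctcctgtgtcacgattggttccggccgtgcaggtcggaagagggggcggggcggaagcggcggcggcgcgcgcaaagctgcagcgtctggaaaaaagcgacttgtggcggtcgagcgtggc
DTL, chr1:212035498-212035797, plus strand: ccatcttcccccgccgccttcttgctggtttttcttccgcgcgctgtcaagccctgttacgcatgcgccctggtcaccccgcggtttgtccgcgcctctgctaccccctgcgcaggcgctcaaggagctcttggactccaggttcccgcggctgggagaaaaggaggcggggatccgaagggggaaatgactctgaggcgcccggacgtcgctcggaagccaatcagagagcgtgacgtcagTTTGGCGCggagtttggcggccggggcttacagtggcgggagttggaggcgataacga
PCNA, chr20:5126573-5126872, minus strand: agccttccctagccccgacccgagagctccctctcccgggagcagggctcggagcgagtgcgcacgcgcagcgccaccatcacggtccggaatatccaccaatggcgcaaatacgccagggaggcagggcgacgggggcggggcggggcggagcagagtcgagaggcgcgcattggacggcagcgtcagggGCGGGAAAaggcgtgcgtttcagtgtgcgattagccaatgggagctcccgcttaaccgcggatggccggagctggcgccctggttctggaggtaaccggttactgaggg
MCM10, chr10:13161308-13161607, plus strand: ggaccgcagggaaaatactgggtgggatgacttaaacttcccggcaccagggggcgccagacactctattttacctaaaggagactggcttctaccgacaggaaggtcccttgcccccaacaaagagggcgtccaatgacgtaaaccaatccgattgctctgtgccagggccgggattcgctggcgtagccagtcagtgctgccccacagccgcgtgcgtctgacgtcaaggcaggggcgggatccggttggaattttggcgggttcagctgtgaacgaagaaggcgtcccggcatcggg
The word in DTL begins 8 bases before the start and that in PCNA 59 bases before it. A match of letters is a description and not a measured binding site.

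Every member was within 1.5-fold between the combination and TPF libraries when all kept cells were summed. The 42 members summed to 2645 CPM in the combination library and 2727 CPM in the TPF library. Of the 41 members at 10 CPM, 0 were higher by 1.5-fold or more and 0 were lower by as much in the combination library, where 0.0737% and 0.172% of all 8143 genes were. The members' median log2 ratio was -0.088 and that of all genes -0.058. Of the 41 members 15 lay above 0 and 26 below, beside 2942 and 5201 of all 8143 genes. At this depth small differences were still outside counting error. RFC2, a subunit of the clamp loader, had 53.7 CPM in the combination library and 72.1 CPM in the TPF library, a log2 ratio of -0.42 (-0.47 to -0.38), the lowest. CDT1 followed at -0.39 (-0.46 to -0.32), then FEN1 at -0.36 (-0.41 to -0.31) and RFC4 at -0.34 (-0.39 to -0.29). RPA3, the small subunit of RPA, had the highest ratio, 0.20 (0.18 to 0.22), with 293 CPM in the combination library and 254 CPM in the TPF library. RPA1, its large subunit, was at 0.17 (0.13 to 0.22), whereas RPA2, the middle one, was at -0.25 (-0.31 to -0.19). By group, the Okazaki enzymes FEN1 and LIG1 summed to 55.8 CPM in the combination library and 67.7 CPM in the TPF library, and the clamp with its loaders to 438 and 512 CPM, the lowest ratios of group sums. The spread between repeated libraries of 1 condition is unknown, so these small ratios cannot be set against it. In cells of at least 10000 UMIs with MALAT1 under 0.05%, 7 of 41 members were at least 1.5-fold lower in the combination library, beside 15.3% of genes. At 0.05% to 0.1% MALAT1, 6 were lower and 1 higher, beside 8.78% and 1.01% of genes. Median depth also differed, at 17867 UMIs in the combination library and 27920.5 in the TPF library.

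Against the FaDu library most members were higher in the resistant cells. The sum of the 42 was 2645 CPM in the combination library, 2727 CPM in the TPF library and 1719 CPM in the FaDu library. In the TPF library 23 of 41 members were at least 1.5-fold higher than in the FaDu library and 0 lower, with a median log2 ratio of 0.65. Of all genes 35.0% were higher and 2.01% lower by this rule, with a median of 0.37. In the combination library 21 of 41 were higher than in the FaDu library and 0 lower, with a median of 0.59, where 32.6% of all genes were higher and 4.14% lower and their median was 0.31. Both comparisons share the FaDu library, so their likeness is not independent. The shift of the whole transcriptome depends on scaling: TMM factors lower each log2 ratio of the TPF library over the FaDu library by 0.57 and each of the combination library by 0.52, and bring the median gene to -0.20 and -0.21. Under TMM 7 members were at least 1.5-fold higher and 1, PCNA, lower in the combination library over FaDu, where 9.96% of all genes were higher and 25.0% lower. In the TPF library over FaDu 9 were then higher and 1, RPA3, lower, where 8.46% of all genes were higher and 21.5% lower. Under TMM 23 of 41 members lay above 0 in the combination library and 24 of 41 in the TPF library. Relative to the median gene, 32 of 41 members were higher in the TPF library and 29 of 41 in the combination library. A summed level cannot tell more cells in S phase from more RNA per cell.

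**Figure D1:**
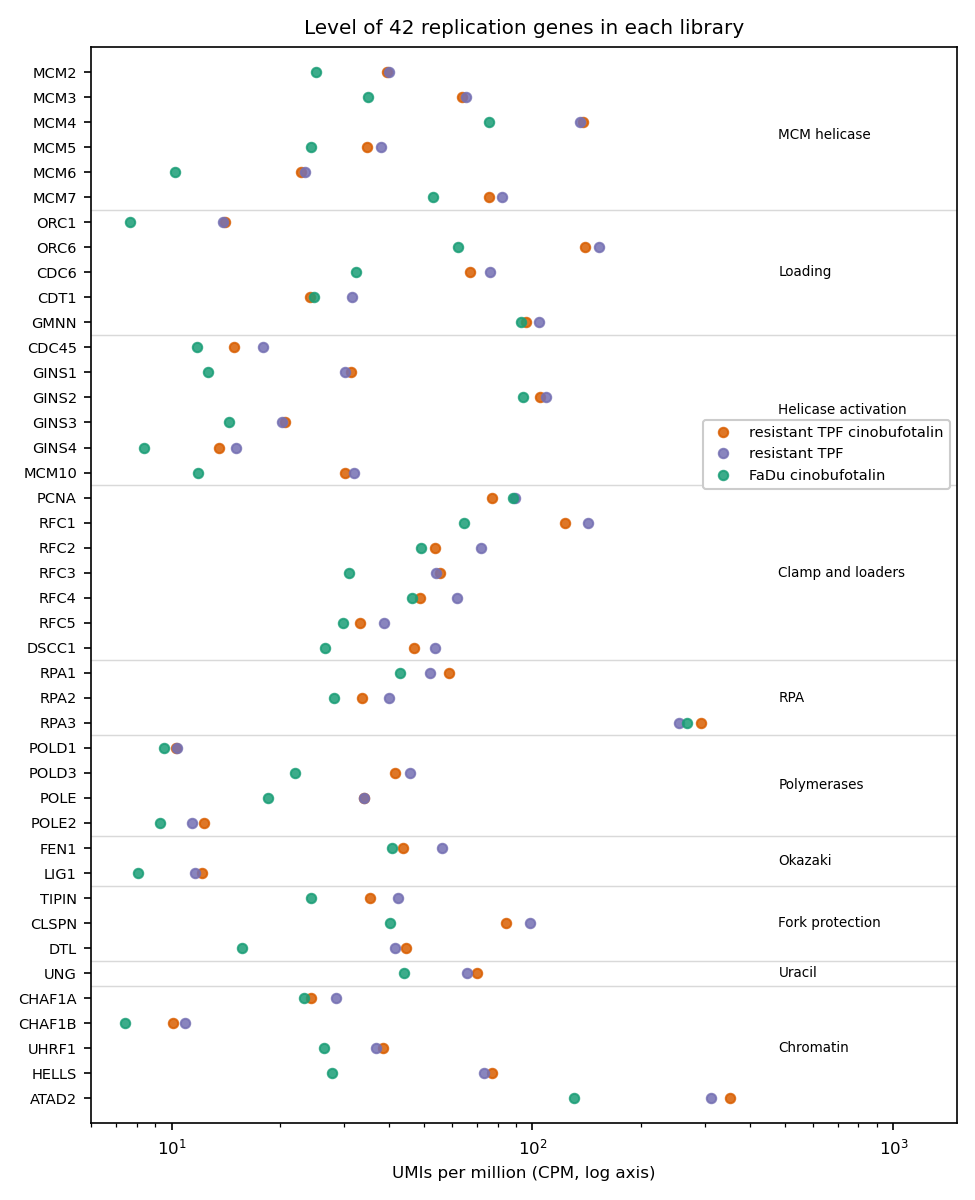
Level of each of the 42 members in the 3 libraries, in CPM on a log axis, 1 point per library and gene, with genes grouped by role. The green FaDu points lie left of both resistant points for most members, while PCNA, GMNN and RPA3 lie close together; levels are to be compared along a row, since 3′ counts are not scaled for gene length.

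The helicase ring was higher in the resistant cells as a summed group. MCM2 to MCM7 summed to 374 CPM in the combination library, 385 CPM in the TPF library and 223 CPM in the FaDu library. All 6 subunits were at least 1.5-fold higher in the TPF library than in the FaDu library, and 4 of 6 in the combination library, where MCM5 at 0.51 and MCM7 at 0.52 fell just short and turn to -0.0057 and -0.00064 under TMM. These counts stand beside 35.0% of all genes in the TPF library and 32.6% in the combination library, and under TMM 1 of 6 subunits, MCM6, was past 1.5-fold in each, with the summed group at 0.22 in both. MCM6 had the largest ratio, with 22.8 CPM in the combination library, 23.4 CPM in the TPF library and 10.2 CPM in the FaDu library. Its log2 ratios over FaDu were 1.15 (1.07 to 1.24) in the combination library and 1.19 (1.11 to 1.28) in the TPF library. MCM3 had 63.6 CPM in the combination library, 65.5 CPM in the TPF library and 35.0 CPM in the FaDu library. MCM4 was likewise at 138, 136 and 75.7 CPM in that order, and MCM2, which overlaps TPRA1 on the opposite strand, at 39.4, 39.9 and 25.1 CPM. The subunits of this ring, which is assembled with 1 copy of each, did not share a common ratio: the TPF library's ratios over FaDu ran between 0.64 for MCM7 and 1.19 for MCM6.

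In CPM the loaders split into a high and a flat group. ORC6, the smallest subunit of the origin recognition complex, had 140 CPM in the combination library, 153 CPM in the TPF library and 62.0 CPM in the FaDu library, with log2 ratios over FaDu of 1.18 (1.14 to 1.21) and 1.30 (1.27 to 1.34). CDC6, the ATPase that recruits the ring, had 67.1 CPM in the combination library, 76.4 CPM in the TPF library and 32.5 CPM in the FaDu library. ORC1, its relative in the origin recognition complex, was at 14.1, 13.9 and 7.66 CPM in the same order. These 3 genes were at least 1.5-fold higher in both resistant libraries than in the FaDu library. CDT1 and its inhibitor GMNN were not. CDT1 had 24.2 CPM in the combination library, 31.6 CPM in the TPF library and 24.8 CPM in the FaDu library, and GMNN had 95.9, 104 and 92.7 CPM. GMNN's log2 ratios over FaDu were 0.049 (0.016 to 0.083) in the combination library and 0.17 (0.13 to 0.20) in the TPF library, both below the median gene. Under TMM the ratios of CDT1 and GMNN over FaDu are negative in both resistant libraries. ORC6 stayed past 1.5-fold under TMM in both, at 0.66 in the combination library and 0.73 in the TPF library. CDC6 did so in the TPF library, at 0.67, but not in the combination library, at 0.53. ORC1 did so in neither, at 0.36 in the combination library and 0.29 in the TPF library.

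Among the factors that activate the helicase, MCM10 and GINS1 were furthest apart. MCM10, an origin activation factor, had 30.2 CPM in the combination library, 32.1 CPM in the TPF library and 11.8 CPM in the FaDu library. Its log2 ratio of 1.44 (1.36 to 1.52) for the TPF library over the FaDu library was the highest of all members. GINS1 had 31.5 CPM in the combination library, 30.3 CPM in the TPF library and 12.6 CPM in the FaDu library. The other subunits of the same 4-part complex stood lower in this order of ratios: for the TPF library over FaDu, GINS4 was at 0.85, GINS3 at 0.49 and GINS2 at 0.22. GINS2 had 105 CPM in the combination library, 109 CPM in the TPF library and 94.0 CPM in the FaDu library. It overlaps GSE1 on the opposite strand, and GINS3 turns negative under TMM in both resistant libraries, as GINS2 does. CDC45, which binds the ring together with GINS, had 14.9 CPM in the combination library, 17.9 CPM in the TPF library and 11.7 CPM in the FaDu library. Its ratio over FaDu was 0.35 in the combination library, negative under TMM, and 0.61 in the TPF library.

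PCNA, the sliding clamp, was the member whose CPM differed least between the TPF and FaDu libraries, although TMM scaling puts it at -0.55. It had 77.5 CPM in the combination library, 89.3 CPM in the TPF library and 88.0 CPM in the FaDu library. The log2 ratio of the TPF library over FaDu was 0.021 (-0.014 to 0.056), and that of the combination library was -0.18 (-0.22 to -0.15), the lowest of all members in that comparison and -0.71 under TMM. The loader subunits differed from each other. RFC1, the large subunit, had 123 CPM in the combination library, 143 CPM in the TPF library and 64.7 CPM in the FaDu library. RFC3 was also at least 1.5-fold higher than in FaDu in both resistant libraries, with ratios of 0.84 in the combination library and 0.80 in the TPF library. Under TMM both genes were below 1.5-fold, RFC1 at 0.40 in the combination library and 0.57 in the TPF library, and RFC3 at 0.32 and 0.23. RFC2, RFC4 and RFC5 lay below 1.5-fold in both, at 0.13, 0.070 and 0.16 in the combination library and 0.56, 0.41 and 0.38 in the TPF library, and all 6 of these ratios are negative under TMM. RFC4 overlaps EIF4A2 and RFC5 overlaps WSB2 on opposite strands, and whether the counting used strand was not given in the sources used here, so their levels are uncertain. DSCC1, part of the alternative loader built on CTF18, had 46.9 CPM in the combination library, 53.7 CPM in the TPF library and 26.7 CPM in the FaDu library.

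The RPA trimer showed the smallest group difference from FaDu in CPM, with summed log2 ratios of 0.18 in the combination library and 0.030 in the TPF library, which TMM scaling turns to -0.34 and -0.54. Its 3 subunits summed to 385 CPM in the combination library, 346 CPM in the TPF library and 339 CPM in the FaDu library, and 0 of 3 were 1.5-fold apart in any pair in CPM. RPA3 had 293 CPM in the combination library, 254 CPM in the TPF library and 268 CPM in the FaDu library. It was the only member below 0 in the TPF library over FaDu, at -0.078 (-0.10 to -0.056), and was at -0.65 under TMM. RPA1 and RPA2 were at 0.28 and 0.51 in that comparison, and both are negative under TMM. RPA1 shares its locus with SMYD4 on the opposite strand.

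The polymerases divided by gene and not by enzyme. POLE, the catalytic subunit of polymerase epsilon, had 34.2 CPM in the combination library, 34.1 CPM in the TPF library and 18.5 CPM in the FaDu library. POLD3, an accessory subunit of polymerase delta, had 41.5 CPM in the combination library, 45.9 CPM in the TPF library and 21.9 CPM in the FaDu library. Both were at least 1.5-fold higher in either resistant library than in FaDu. Under TMM they were below 1.5-fold, POLE at 0.36 in the combination library and 0.31 in the TPF library, and POLD3 at 0.40 and 0.50. POLD1, the catalytic subunit of polymerase delta, was at 10.3, 10.4 and 9.50 CPM in the order above, and POLE2, a subunit of polymerase epsilon, at 12.3, 11.4 and 9.27 CPM. Their ratios over FaDu were 0.11 and 0.41 in the combination library and 0.13 and 0.30 in the TPF library, and are negative under TMM. The flap nuclease FEN1 and the ligase LIG1, which join Okazaki fragments, were at 0.46 and 0.53 in the TPF library over FaDu and at 0.099 and 0.59 in the combination library over FaDu, where LIG1 was just past 1.5-fold. Under TMM all of these are negative except LIG1 in the combination library. FEN1 shares its locus with TMEM258 on the opposite strand, a gene at a mean of 345 CPM.

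Of the group sums, 2 stood furthest above FaDu: that of CLSPN, TIPIN and DTL, listed here as fork protection, and that of the chromatin factors. ATAD2 alone gave most of the chromatin sum, which was 502 CPM in the combination library, 462 CPM in the TPF library and 216 CPM in the FaDu library. DTL, the receptor that marks CDT1 for destruction at PCNA, had 44.5 CPM in the combination library, 41.5 CPM in the TPF library and 15.7 CPM in the FaDu library. Its log2 ratio over FaDu was 1.51 (1.44 to 1.57) in the combination library, the highest of all members there, and 1.41 (1.34 to 1.47) in the TPF library. CLSPN, an adaptor of the replication checkpoint, had 84.4 CPM in the combination library, 98.3 CPM in the TPF library and 40.4 CPM in the FaDu library. TIPIN, the partner of TIMELESS at the fork, was at 35.6, 42.4 and 24.4 CPM. HELLS, a chromatin remodeller, had 77.3 CPM in the combination library, 73.5 CPM in the TPF library and 27.8 CPM in the FaDu library. ATAD2, an ATPase with a bromodomain that binds new chromatin, had 352 CPM in the combination library, 312 CPM in the TPF library and 131 CPM in the FaDu library. HELLS and ATAD2 were the chromatin members past 1.5-fold. CHAF1A of the histone chaperone CAF-1 was at 0.062 in the combination library over FaDu and 0.30 in the TPF library over FaDu, and UHRF1, which reads methylation of the parental strand, at 0.53 and 0.48. CHAF1A is negative under TMM in both, and UHRF1 in the TPF library. UNG, the glycosylase that removes uracil from DNA, had 70.0 CPM in the combination library, 65.7 CPM in the TPF library and 43.9 CPM in the FaDu library. Its ratio over FaDu was 0.67 in the combination library, past 1.5-fold, and 0.58 in the TPF library, just short of it. Under TMM these ratios were 0.15 and 0.012.

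**Figure D2:**
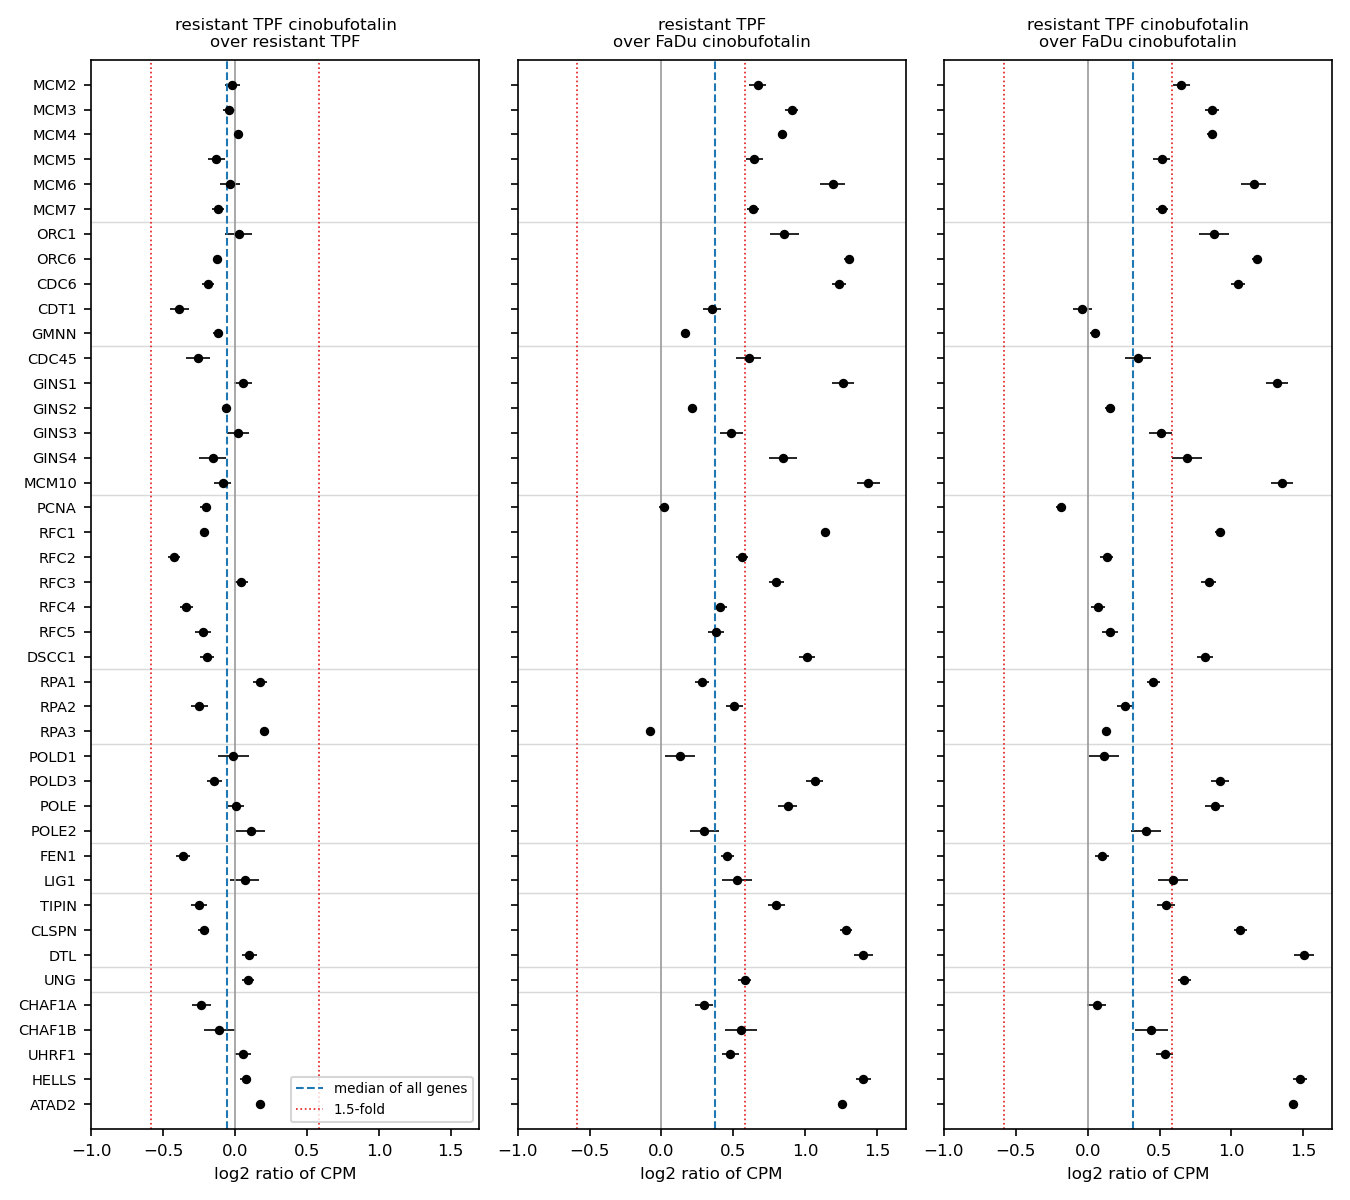
Log2 ratio of CPM for each member in the 3 pairs of libraries, with 95% counting intervals as bars, the median of all genes at 10 CPM as a dashed line and 1.5-fold as dotted lines. In the left panel all members lie between -0.42 and 0.20; in the other panels, which share the FaDu library, they spread between -0.18 and 1.51, and TMM scaling would move all points of the middle panel left by 0.57 and all points of the right panel left by 0.52.

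Replication genes outside the 42 members were counted in the same way. Of 41 further replication genes listed, 34 had at least 10 CPM. In the TPF library over FaDu 16 of the 34 were at least 1.5-fold higher and 0 lower, in the combination library over FaDu 14 higher and 1 lower, and between the combination and TPF libraries 0 in either direction. Their shares past 1.5-fold higher, 47.1% and 41.2%, stand beside 35.0% and 32.6% of all genes. Under TMM 6 were higher and 4 lower in the TPF library over FaDu, and 8 higher and 4 lower in the combination library over FaDu, with medians of 0.0090 and -0.067. PRIM1, the catalytic subunit of primase, had 69.2 CPM in the combination library, 68.0 CPM in the TPF library and 14.3 CPM in the FaDu library, a log2 ratio over FaDu of 2.27 in the combination library and 2.25 in the TPF library. ATAD5, which unloads PCNA, followed at 1.88 in the combination library and 1.99 in the TPF library, and POLA1, the catalytic subunit of polymerase alpha, at 1.99 and 1.69. WDHD1, TOPBP1, MCM8, CDC7 and SUPT16H were between 1.06 and 1.54 in the TPF library over FaDu. In the combination library over FaDu, PRIM2 and the first 4 of those were between 1.14 and 1.56. The gene that was lower, named after its value was seen, was ASF1A, a histone chaperone, with 30.4 CPM in the combination library, 36.1 CPM in the TPF library and 50.1 CPM in the FaDu library.

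The ratios over FaDu moved with the length of a gene in the genome. Over all 8143 genes the Spearman correlation of genomic span with the log2 ratio over FaDu was 0.51 in the combination library and 0.48 in the TPF library, and over the 41 members 0.42 and 0.28, given as descriptions across genes. In cells matched at 0.3% to 1% MALAT1 it was lower, 0.34 in the combination library and 0.23 in the TPF library over all genes, and 0.32 and 0.11 over the members. In the TPF library over FaDu 11.3% of genes spanning under 10 kb were at least 1.5-fold higher, and 62.9% of those over 80 kb. The members stood above the genes of their own span range at each length. Their medians in the TPF library over FaDu were 0.55 under 10 kb (4 members) where all genes were at 0.057, 0.41 from 10 to 20 kb (9 members) where genes were at 0.18, and 0.67 from 20 to 40 kb (9 members) where genes were at 0.32. They were 0.80 from 40 to 80 kb (13 members) where genes were at 0.51, and 0.93 above 80 kb (6 members) where genes were at 0.74. ORC6, which spans 8.75 kb, and CDC6, which spans 17.0 kb, were the members under 20 kb with the highest ratios. RPA3 spans 82.1 kb and lay below the median of its range. Span, which moves with the ratio of all genes, was not tested as a part of the members' difference.

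**Figure D3:**
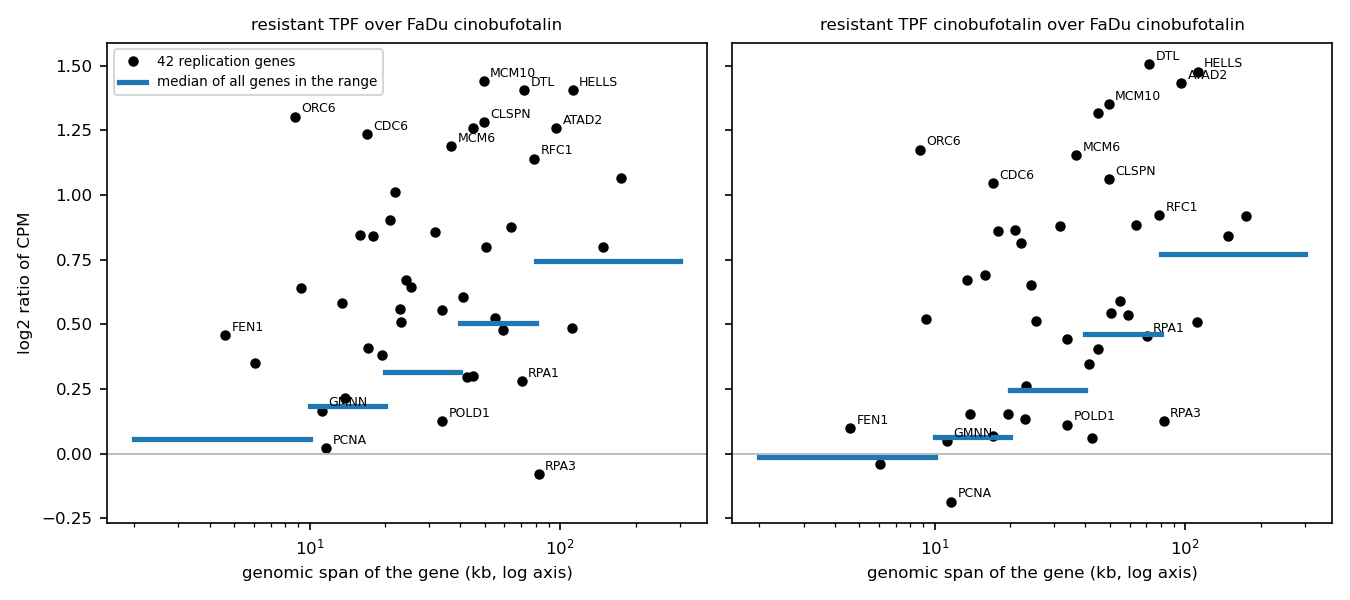
Log2 ratio of CPM over the FaDu library against the genomic span of each member on a log axis, for the TPF library (left) and the combination library (right). Black points are members and blue bars the median of all genes in each span range, the outer bars being drawn shorter than their ranges. Most members lie above the bar of their range, and PCNA, RPA1 and RPA3 are among those at or below it. All points and bars would move down together under TMM scaling.

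Cells differed widely in their replication RNA. After each cell was thinned to 5000 UMIs, with 571, 205 and 144 shallower cells left out of the combination, TPF and FaDu libraries, the median cell held 13 member UMIs in the combination library, 13 in the TPF library and 8 in the FaDu library. The range between the 5th and 95th percentile was 3 to 24 in the combination library, 2 to 25 in the TPF library and 2 to 17 in the FaDu library. The variance of this number over its mean was 3.26 in the combination library, 3.45 in the TPF library and 2.36 in the FaDu library, where counting alone gives a ratio near 1. A median of 10, 10 and 7 of the 42 members had a UMI in a thinned cell. Within a range of depth the FaDu library was again the lowest. In cells of 20000 to 40000 UMIs the members summed to 2625 CPM in the combination library, 2797 CPM in the TPF library and 1786 CPM in the FaDu library. In cells above 40000 UMIs, which were 45 in the combination library, 511 in the TPF library and 708 in the FaDu library, they summed to 1773, 2576 and 1552 CPM. These deep cells held a median of 0.295%, 2.93% and 0.774% mitochondrial UMIs in that order.

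The members' level varied with the share of MALAT1 in a cell. Among cells of at least 10000 UMIs, the member sum in the combination library was 1986 CPM where MALAT1 was under 0.05% and 2857 CPM where it was 0.3% to 1%. In the TPF library these sums were 2334 and 2931 CPM, and in the FaDu library 1609 and 1890 CPM. At 2% MALAT1 or more the sums were 1866 CPM in the combination library, 1983 CPM in the TPF library and 1454 CPM in the FaDu library, lower than at 1% to 2% in each. Cells at 0.3% to 1% over cells under 0.1% had 32 of 41 members at least 1.5-fold higher in the combination library, where 47.9% of all genes were. In the TPF library 13 were, beside 22.2% of genes, and in the FaDu library 5, beside 20.7% of genes. POLE was high in each, at a log2 ratio of 0.98 in the combination library, 0.95 in the TPF library and 0.81 in the FaDu library. RPA3 went the other way in all 3, at -0.44, -0.23 and -0.24. Between libraries, in cells matched at 0.3% to 1% MALAT1, 21 of 41 members were at least 1.5-fold higher in the TPF library than in the FaDu library, where 20.3% of genes were, and 20 of 41 in the combination library, where 21.0% of genes were. The members' medians there were 0.62 in the TPF library and 0.55 in the combination library over FaDu, and those of all genes 0.23 and 0.23. MCM10 was at 1.24 in the matched cells of the combination library and 1.30 in those of the TPF library, and POLD1 at -0.10 in both. This range held 2811 combination, 1894 TPF and 1106 FaDu cells, while 2429 FaDu cells lay under 0.05%. Under 0.05%, 15 members were higher and 0 lower in the TPF library over FaDu, beside 19.3% and 5.15% of genes. The combination library over FaDu then had 8 higher and 6 lower, beside 9.68% and 16.9%. Its medians were 0.20 for members and -0.072 for all genes.

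The difference from FaDu was not even across bins of cells by G2/M genes. Cells thinned to 5000 UMIs were divided into 3 bins by the summed UMIs of 52 G2/M genes, none of them a member, with limits of 20 and 30 UMIs that split the cells of all libraries together about evenly. In the lowest bin the members summed to 1882 CPM in the combination library, 1697 CPM in the TPF library and 1605 CPM in the FaDu library. In the middle bin the sums were 2889, 2958 and 1921 CPM, and in the highest 3095, 3166 and 1787 CPM. The members' median log2 ratio of the TPF library over FaDu was 0.15 in the lowest bin, 0.63 in the middle and 0.91 in the highest, while the median of all genes stayed at 0.32, 0.33 and 0.33. For the combination library over FaDu the members' medians were 0.18, 0.54 and 0.79, and those of all genes 0.23, 0.29 and 0.30. The lowest bin also held many cells with MALAT1 at 2% or more: 20.8% of its cells in the combination library, 30.4% in the TPF library and 3.96% in the FaDu library. When those cells were left out, a choice made after the data were seen, the members summed in the lowest bin to 2103 CPM in the combination library, 2034 CPM in the TPF library and 1630 CPM in the FaDu library. The members' medians from the lowest bin to the highest were then 0.38, 0.64 and 0.95 for the TPF library over FaDu, where all genes were at 0.31, 0.33 and 0.32, and 0.27, 0.54 and 0.83 for the combination library over FaDu, where all genes were at 0.18, 0.28 and 0.29. In the lowest bin the members' median was thus below that of all genes with those cells and above it without them, and in the middle and highest bins it was above either way. With all cells kept, MCM6 was at 0.21, 1.58 and 1.80 in the TPF library over FaDu from the lowest bin to the highest, and DTL at 0.56, 1.57 and 2.05. UNG was at -0.22, 0.63 and 1.10, and LIG1 at -0.44, 0.71 and 0.93. Without the cells at MALAT1 of 2% or more, the lowest bin gave 0.42 for MCM6, 0.74 for DTL, -0.0058 for UNG and -0.076 for LIG1. RFC3 gained less, at 0.30, 0.85 and 0.61, and GINS3 was at 0.35, 0.52 and 0.52. The libraries also differed in how many cells each bin held: the highest bin held 36.8% (35.7 to 37.9) of the cells of the combination library, 38.7% (37.3 to 40.1) of the TPF library and 18.6% (17.6 to 19.6) of the FaDu library. The limits are UMIs of 5000, so these shares, and which cells are compared within a bin, depend on scaling as the CPM ratios do. TMM was not applied to them. Whether a bin holds the same phase of the cycle in each library was not tested. The median cell held 27 G2/M UMIs in the combination library, 27 in the TPF library and 21 in the FaDu library. The intervals are for counting cells of 1 library each.

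**Figure D4:**
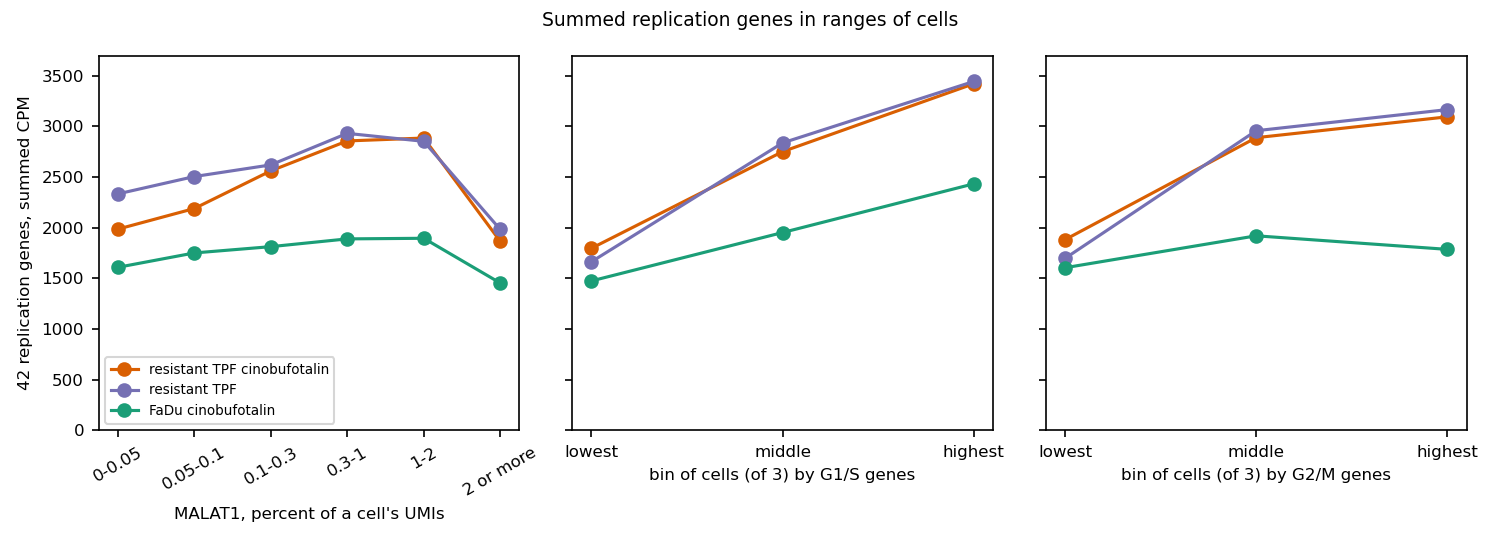
Summed CPM of the 42 members in cells grouped by MALAT1 share (left, cells of at least 10000 UMIs), by 21 other G1/S genes (middle) and by 52 G2/M genes (right, both with cells thinned to 5000 UMIs), 1 line per library. The FaDu line stays lowest in every group; in the highest bin by G2/M genes the combination and TPF lines are at 3095 and 3166 CPM and the FaDu line at 1787 CPM, and in the lowest bin at 1882, 1697 and 1605 CPM, or 2103, 2034 and 1630 CPM without cells at MALAT1 of 2% or more.

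A list of 21 other G1/S genes, again with no member, gave a clearer order among cells than the G2/M genes did. Within each library cells were split into 4 bins of equal size by this list, and the highest of the 4 was set over the lowest. The members summed to 3607 CPM in the highest bin and 1558 CPM in the lowest in the combination library, 3645 and 1475 CPM in the TPF library, and 2259 and 1213 CPM in the FaDu library. Of 41 members 39 were at least 1.5-fold higher in the combination library, beside 12.6% of all genes, 41 in the TPF library, beside 8.41%, and 37 in the FaDu library, beside 4.81%. CDC45 had the largest ratio in the combination library at 2.21, LIG1 in the TPF library at 2.22 and CDC45 in the FaDu library at 1.67. RFC1 was low in each, at 0.49 in the combination library, 0.60 in the TPF library and 0.35 in the FaDu library. When cells with MALAT1 of 2% or more were left out, a choice made after the data were seen, the counts were 37 beside 17.3% of genes in the combination library, 37 beside 5.97% in the TPF library and 36 beside 4.74% in the FaDu library.

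Against G2/M genes the libraries differed in pattern. In the highest over the lowest bin of cells by that list, 34 members were at least 1.5-fold higher in the combination library, beside 9.78% of genes, and 37 in the TPF library, beside 7.5%. In the FaDu library 13 were higher, beside 4.59% of genes, and 1 was lower, MCM6, beside 3.18%. Leaving out cells with MALAT1 of 2% or more changed these counts to 27 beside 11.6% in the combination library, 15 beside 5.05% in the TPF library and 9 beside 4.42% in the FaDu library, where 2 were then lower beside 2.55%. The lower pair was MCM6 at -0.69 and DTL at -0.66. In those cells MCM6 was at 0.37 in the combination library and 0.32 in the TPF library, and DTL at 0.61 and 0.44. UNG was at -0.49 and MCM5 at -0.29 in FaDu cells, where they were at 0.44 and 0.29 in the combination library and at 0.48 and 0.34 in the TPF library. ORC6 did not share this difference, with 1.08 in the combination library, 0.96 in the TPF library and 1.07 in the FaDu library. RPA2 was at 0.79, 0.78 and 0.91 in the same order. These contrasts between libraries were not tested.

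**Figure D5:**
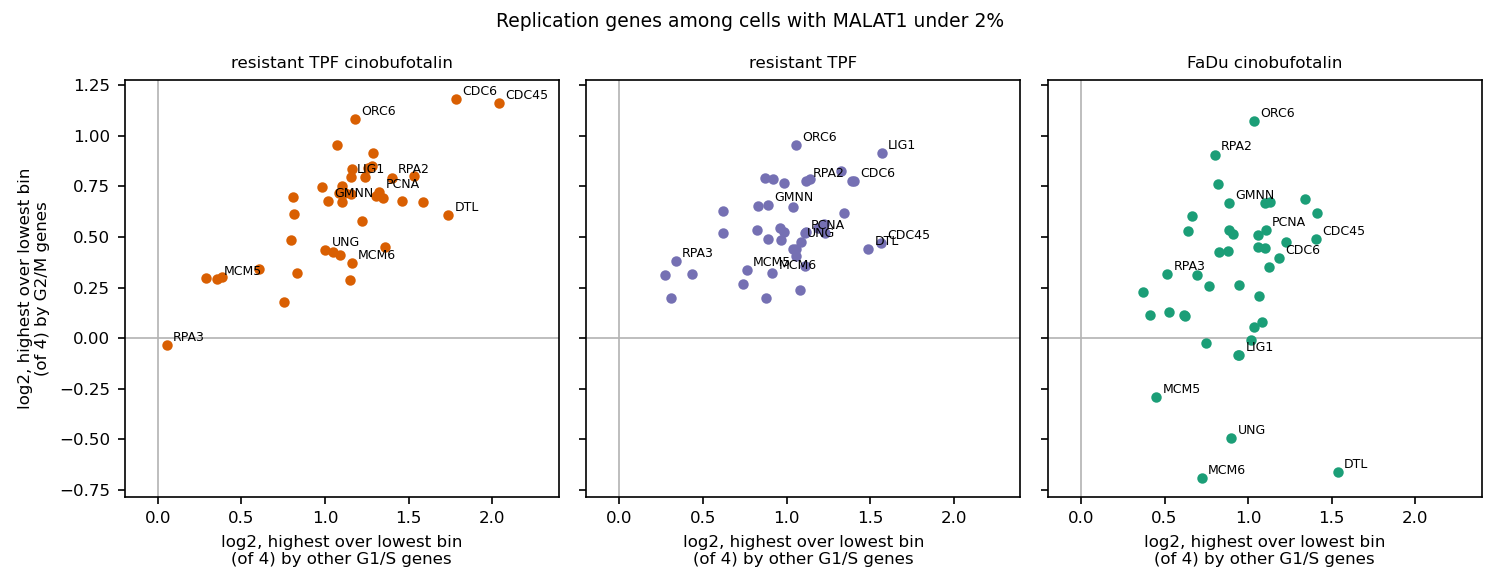
For each member, the log2 ratio of CPM in the highest over the lowest bin of cells by 21 other G1/S genes (horizontal axis) and by 52 G2/M genes (vertical axis), 1 panel per library, for cells thinned to 5000 UMIs with MALAT1 under 2%. All members lie right of 0 in each panel. In the FaDu panel MCM6, DTL, UNG and MCM5 lie furthest below 0 on the vertical axis. In both resistant panels those 4 lie above it. MCM4 and LIG1 at -0.084, GINS2 at -0.022 and TIPIN at -0.0079 also lie below 0 in the FaDu panel. RPA3 lies below 0 in the combination panel, at -0.034.

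The members also varied together. For each member, cells of a library were split into 4 equal bins by the summed UMIs of the other members, and its CPM in the highest bin was set over that in the lowest. The ratio was at least 1.5-fold for 39 of 41 members in the combination library, beside 12.7% of all genes against the full sum, for 41 in the TPF library, beside 9.64%, and for 38 in the FaDu library, beside 6.21%. The median log2 ratio was 1.41 in the combination library, 1.51 in the TPF library and 1.14 in the FaDu library. DTL was highest in each, at 2.32, 2.25 and 2.13 in that order. RPA3 was lowest in the combination and FaDu libraries, at 0.16 and 0.30, and RFC1 lowest in the TPF library, at 0.66. RPA1, RPA2 and RPA3 thus did not move alike, with 0.79, 1.35 and 0.16 in the combination library. PCNA, whose log2 ratio over FaDu was among the lowest, did follow the other members among cells, at 1.33 in the combination library, 1.34 in the TPF library and 1.10 in the FaDu library. The lowest bin held 21.9% of its cells at MALAT1 of 2% or more in the combination library, 30.1% in the TPF library and 5.62% in the FaDu library, and the highest bin 6.96%, 9.28% and 3.08%. Without those cells the counts were 38 in the combination library, 38 in the TPF library and 37 in the FaDu library, beside 15.1%, 7.91% and 6.16% of genes.

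Outside the members, the genes whose level among cells most followed the member sum, ranked by the lowest of the 3 libraries at a mean of at least 10 CPM, were CCNE2, FAM111B, EXO1, NCAPG, POLA1, ATAD5, CEP152, BLM, DIAPH3, RAD54L, ZNF367 and E2F1. CCNE2, which encodes cyclin E2, had log2 ratios of 1.86 in the combination library, 1.97 in the TPF library and 1.95 in the FaDu library. E2F1, the transcription factor, was at 1.51, 1.67 and 1.499. CCNE2 had 48.8 CPM in the combination library, 46.9 CPM in the TPF library and 13.2 CPM in the FaDu library. The likeness was measured within each library over 6954, 4657 and 5979 thinned cells, which share the library, its depth and its free RNA.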

How the data were processed

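Single-cell RNA was measured in 3 libraries of 3′ 10x chemistry, 1 per group. The deposited files hold raw UMI counts per gene and barcode. Per the labels and the submitters' processing notes, the authors made them with Cell Ranger 7.0 on hg38. Neither the annotation nor whether introns or strand were used in counting is given in the sources used here. Positions came from GENCODE release 29, which holds all 58735 feature IDs.

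From these counts, the UMIs of kept cells were added up within each library and expressed as CPM. Log2 ratios carry 95% Clopper-Pearson intervals, and genes with a mean of at least 10 CPM were counted when at least 1.5-fold apart. Cells were thinned to 5000 UMIs for comparisons among cells. Free RNA was not corrected for. Python 3.11.15 was used with scipy 1.17.1, numpy 2.4.6 and pandas 2.3.3, and TMM factors came from edgeR 4.0.16 in R 4.3.3. The calculations were tested on simulated counts with known ratios.

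All 42 members are named. Further replication genes past 1.5-fold are named up to 8 a pair by size, and 12 others by likeness to the member sum among cells. The members, lists and roles were chosen with earlier results of these data known. Alternatives concerned cell filters, scaling, thinning, limits, MALAT1 ranges and bins by G2/M genes.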

Additional observations from a re-analysis of the deposited data

How the results depend on the processing

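Over 21 alternatives between libraries, 3 of them added after the data were seen, and 2 within them, 119 of 144 counts of members stayed within 1.5 times their value. A count of 0 that stayed 0 was taken as within this limit. The main counts were 0 in both directions in the combination library over TPF, and 0 lower in either resistant library over FaDu. Many of the 119 are such counts. Of 2520 member ratios under alternatives, 1163 stayed within the counting interval of their value, 1348 moved outside it, and 9 changed sign after having been past 1.5-fold. Of the 1680 over FaDu, 1472 were above 0. Without alternatives, 6294 of all 8143 genes were above 0 in the TPF library over FaDu. In the combination library over FaDu 5807 were. TMM factors gave 9 members higher and 1 lower in the TPF library over FaDu, and 7 higher and 1 lower in the combination library over FaDu, where 94.6% and 88.7% of all called genes were higher without TMM and 28.2% and 28.5% with it. A 2-fold limit gave 12 higher in the TPF library over FaDu, beside 13.2% of genes. It gave 9 in the combination library over FaDu, beside 13.3%. In cells with MALAT1 under 0.05% the combination library over TPF had 7 lower, the TPF library over FaDu 15 higher, and the combination library over FaDu 8 higher and 6 lower, where 15.3% of all genes were lower, 19.3% higher, and 9.68% higher and 16.9% lower in the same order. At 0.05% to 0.1%, with 166 cells in the combination library, 116 in the TPF library and 623 in the FaDu library, these became 1 higher and 6 lower, 14 higher and 2 lower, and 9 higher and 6 lower, where all genes were 1.01% higher and 8.78% lower, 17.9% higher and 6.32% lower, and 12.02% higher and 13.4% lower. At 0.1% to 0.3% the TPF library over FaDu had 14 higher, beside 16.8% of genes. In the lowest bin by G2/M genes the combination library over TPF had 2 higher, the TPF library over FaDu 4, and the combination library over FaDu 8, beside 1.33%, 32.1% and 25.9% of genes. Without cells at MALAT1 of 2% or more that bin gave 2 higher and 2 lower, 12 higher, and 10 higher, beside 1.38% higher and 5.38% lower, 29.4% higher and 21.2% higher of genes. Without cells at MALAT1 of 2% or more, 15 members were higher by G2/M genes in the TPF library, beside 5.05% of genes. With them 37 were, beside 7.5%. Sign changes were MCM7 at -0.055 and CDC45 at -0.090 (TPF over FaDu) and LIG1 at -0.28 (combination over FaDu) with MALAT1 under 0.05%, and MCM3 at -0.0055 and GINS4 at -0.95 (combination over FaDu) at 0.05% to 0.1%. In the lowest G2/M bin with all cells MCM2 at -0.0028, MCM5 at -0.072, MCM7 at -0.020 and CDC45 at -0.053 changed sign (TPF over FaDu). The cause was not tested. No paired analysis was possible because each group has 1 library, and no library could be left out. Depth limits the matched and low ranges, where few cells carry the counts, and not the sums over whole libraries.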
